A study of Mus musculus with 8 samples.

Results

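Pre-hemogenic endothelial cells (pre-HE) were compared with arterial endothelial cells (aEC) of wild-type (WT) embryos, gene family by gene family. Both are clusters that the authors drew from single-cell RNA counts and named, and the members are all WT cells deposited under the name preHE or aEC. They numbered 171 pre-HE and 888 aEC, or 1059 of the 8423 WT cells and of the 15168 cells in all. The 5 libraries, WT 1 to WT 5, held 39, 18, 11, 87 and 16 pre-HE and 150, 153, 51, 319 and 215 aEC, so each library gave a sum of both types and served as its own control.

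The study measured RNA and surface proteins in the same cells by CITE-seq, in which antibodies carry sequence tags that are counted beside the RNA. Cells positive for CD31, a surface protein of endothelium and of blood cells that emerge from it, were sorted from the aorta-gonad-mesonephros region (AGM) of embryos at day E10.5. Each WT library was a pool of 2 to 5 embryos on a C57BL/6 background with the genotype label WT, run with 10x 3' chemistry. Libraries of embryos that lacked Meis1 in endothelium (Mff_Cre) were not analysed here. The study's question for these 2 clusters was what sets apart the small endothelial population that leads towards hemogenic endothelium.

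In the AGM, blood stem and progenitor cells arise from hemogenic cells in the wall of the dorsal aorta, in a process called the endothelial-to-hematopoietic transition. Arterial identity is set by vascular endothelial growth factor (VEGF) acting through Notch, and bone morphogenetic protein (BMP), blood flow and inflammatory signals are known to act on the same vessel. Arteries as they mature also slow their cell cycle and lay down elastic matrix, while sprouting endothelium divides and runs on glycolysis.

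Values below are summed unique molecular identifiers (UMIs, each a molecule counted once) given as CPM by the library size of each sum after TMM scaling, and a level is given as mean ± SD over the 5 libraries. A fold change is pre-HE against aEC on the log2 scale with its standard error (SE), from edgeR's quasi-likelihood test over all genes with the library as a block, and a gene was called when its Benjamini-Hochberg adjusted p was under 0.1. Of 8143 genes tested, 42.1% were called, 21.1% higher and 21.1% lower in pre-HE, as 1717 and 1715 genes. With library totals as the only scaling the split was 2056 higher and 1312 lower, and the median change of all genes moved from 0.01 to 0.10. The clusters were drawn from these same RNA counts, so genes that part them had to differ, and a p-value here measures only how alike the difference was in pools of embryos. Genes named below were picked for large changes, which favours ranges that do not overlap. Such ranges require the same direction in 5 of 5 libraries, and over all genes tested 1361 were higher and 1616 lower in 5 of 5. The share of all genes without overlap is not given here. Counts of called members are to be read against the 21.1% in each direction. Low genes passed the filter only where 1 type was high, so summed levels over all measured members are given beside many of the counts. A count without such a sum covers the tested members only.

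The 2 types differed in depth and RNA make-up. A pre-HE cell had a median of 12884 UMIs and 3680 genes, against 18343 UMIs and 4170.5 genes in aEC, and the sums held 2331096 and 16655098 UMIs. Ribosomal protein genes took 18.6% of the pre-HE UMIs and 21.7% of those of aEC, and the share was lower in pre-HE in 5 of 5 libraries. WT 5 stood apart by its depth, with 8851.5 and 9705 UMIs per cell, and the names of its cells begin with Mf_, although its label is WT. Without WT 5, 3431 genes were called. Between WT libraries 7 cell barcodes were shared.

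The names of the clusters were checked against known genes, with venous endothelium (vEC, 5404 WT cells) beside them. The 9 arterial genes that the study used summed to 560 ± 78.8 CPM by library totals in aEC, against 297 ± 31.9 for vEC and 2698 ± 317 for pre-HE. Its 3 venous genes summed to 147 ± 10.4 CPM in aEC, against 401 ± 37.7 for vEC and 73.7 ± 58.1 for pre-HE. The pre-HE sums were 64.5, 42.0, 25.9, 62.5 and 174 CPM in WT 1 to WT 5. In WT 5 pre-HE thus lay above aEC, which was at 142 CPM. Of the 3 genes, Nr2f2 and Nrp2 were lower on average in pre-HE than in aEC. Ephb4 was higher on average, at 49.4 ± 15.9 CPM in pre-HE and 29.2 ± 3.24 CPM in aEC. The aEC cluster thus lay above vEC in arterial and below it in venous genes, but held almost no Gja5, a connexin of arteries, at 2.17 ± 1.92 CPM, while the venous factor Nr2f2 reached 37.5 ± 6.71 CPM. Of the hemogenic regulators, Runx1 was at 0, 28.01, 6.48, 0.791 and 0 CPM in the pre-HE of WT 1 to WT 5, from 8 counts in all, and at a mean of 1.11 ± 0.447 CPM in aEC, from 18 counts. Gfi1 had 6 counts in pre-HE, all in WT 4, and 1 in aEC, and neither gene passed the filter on low counts. All 9 arterial genes were called higher in pre-HE, but the clusters were drawn from the same RNA counts, so this is no independent evidence of a direction.

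Markers of other cells in the sort were mostly low, apart from the blood and endocardial lists and, in pre-HE, the neural gene Stmn2. Of 12 blood markers 3 were tested, 0 were higher and 2 lower in pre-HE, and their sum stood at 250.4 CPM in aEC and 154 CPM in pre-HE. Ptprc (CD45) had 0 counts in pre-HE and 10 in aEC. Mesenchymal markers summed to between 1.995 and 11.1 CPM in the aEC of each library and between 31.4 and 83.6 in pre-HE, and 1 of 11 was tested, Twist1, which was higher. Pericyte and smooth muscle markers stood between 8.55 and 13.7 CPM in aEC and between 18.9 and 33.3 in pre-HE, with Pdgfrb at 0 counts in both. Epithelial markers lay between 0.489 and 2.49 CPM in aEC and between 12.8 and 89.3 in pre-HE, of which Krt18 was tested and higher while Cdh1, Pax8 and Wt1 were at 0. Neural markers lay between 15.96 and 125 CPM in aEC and between 496.7 and 907 in pre-HE, nearly all of it Stmn2, which was tested and higher, while Sox10 was at 0. No erythroid, macrophage, megakaryocyte, lymphatic or liver marker was called higher, but 2 of 10, 0 of 10, 1 of 8, 1 of 5 and 1 of 7 were tested. Most of these markers thus could not be called in either direction. Of 3 endocardial markers tested Npr3 and Nfatc1 were higher, at 3.54 ± 0.15 and 0.76 ± 0.34 (the latter in 3 of 5 libraries), and Hapln1 was lower, and the list summed to 406 ± 55.0 CPM in aEC and 374 ± 70.9 CPM in pre-HE. In addition, of 11 endothelial markers 6 were higher and 0 lower. The part of these cells in the results below was not tested.

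Notch ligands, receptors and most tested Notch targets were higher in pre-HE. All 6 of the 8 ligand and receptor genes that could be tested were called higher, with a median change of 1.26, and their sum was 229 ± 32.1 CPM in aEC and 549 ± 125 CPM in pre-HE. Dll4, the arterial Notch ligand, stood in WT 1 to WT 5 at 59.7, 46.1, 52.9, 56.1 and 29.3 CPM in aEC and 176, 159, 89.4, 148 and 94.3 CPM in pre-HE (log2 fold change 1.48 ± 0.14 SE, adjusted p = 2.21e-11). The ranges did not overlap. The ligand Jag1 changed by 1.33 ± 0.14 and the receptor Notch1 by 1.19 ± 0.15.

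Among the Notch targets, Hey2, a repressor that holds arterial fate, stood at 7.62, 2.75, 3.99, 6.23 and 3.42 CPM in aEC and 134, 109, 147, 69.8 and 56.6 CPM in pre-HE in the same order (log2 fold change 4.13 ± 0.23 SE, adjusted p = 3.03e-19). Every pre-HE library lay far above every aEC library. Hey1 and the feedback gene Nrarp rose by 1.70 ± 0.14 and 1.34 ± 0.14. Hes1, another target repressor, went the other way with 232, 125, 323, 225 and 199 CPM in aEC and 204, 27.3, 134, 208 and 169.8 CPM in pre-HE (log2 fold change -0.45 ± 0.14 SE, adjusted p = 0.0122). Its ranges overlapped, and its call was lost without the library block, with equal cell numbers and in WT 1 and 4 alone. The 15 modifiers and nuclear partners of Notch stayed near the median of all genes, with 4 higher and 2 lower of 13 tested, and the count of higher genes was 2 without WT 2 and 2 without WT 3.

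The promoter of Hey2 is shown because Hey2 had the largest change of the Notch targets. It is the 250 bases before the gene's start in RefSeq, GRCm38.p6 chr10:30842784-30843033, minus strand, read 5′ to 3′. Capitals mark the 1 match to TGGGAA, the core bound by the Notch partner RBPJ, searched on both strands, here on the opposite strand and 207 bases before the start.
Hey2: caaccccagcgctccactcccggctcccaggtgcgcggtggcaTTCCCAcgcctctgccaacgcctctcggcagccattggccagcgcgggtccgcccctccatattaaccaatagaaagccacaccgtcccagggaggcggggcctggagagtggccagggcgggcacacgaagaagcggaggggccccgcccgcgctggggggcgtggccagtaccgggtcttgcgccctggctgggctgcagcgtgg
Of the 4 Notch targets with an entry, 3 held this motif, as did 24.1% of 27025 genes, so the match is a description and not a site. Beside Hey2 these were Hes5 and Hes7, which did not pass the filter on low counts. The window of Nrarp, which rose, held no match.

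BMP targets rose as a group. All 6 of 8 that could be tested were called higher, with a median change of 2.11 and between 1.29 and 3.18 in the single libraries, and their sum was 1323 ± 240.1 CPM in aEC and 3709.6 ± 324 CPM in pre-HE. Tmem100, a membrane protein that BMP9 and BMP10 induce in arteries through ALK1, stood at 1.90, 2.44, 0.998, 22.1 and 3.91 CPM in aEC and 704, 640.5, 588, 627 and 660.2 CPM in pre-HE (log2 fold change 6.32 ± 0.24 SE, adjusted p = 1.93e-24). WT 4 had by far the highest level among the aEC sums, and without WT 4 the change was 8.04. Smad6 and Smad7, which brake the pathway, rose by 3.49 ± 0.20 and 2.28 ± 0.19, and the DNA-binding inhibitors Id1, Id2 and Id3 by 1.34 ± 0.12, 1.95 ± 0.17 and 0.95 ± 0.08.

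Receptors and Smads of the TGF-beta and BMP pathways were mixed, with 6 higher and 3 lower of 15 tested. The co-receptor Tgfbr3 stood at 5.18 ± 1.74 CPM in aEC and 80.3 ± 30.7 CPM in pre-HE (log2 fold change 3.82 ± 0.23 SE, adjusted p = 4.4e-18), and the receptors Acvr1 and Bmpr2 rose by 1.02 ± 0.21 and 0.84 ± 0.14. The signal-carrying Smads of the BMP branch, Smad5 and Smad1, went down, Smad5 at -1.10 ± 0.21 and Smad1 at -0.69 ± 0.19. TGF-beta targets had 7 higher and 2 lower of 9 tested, among them Pmepa1, a feedback inhibitor, at 0.99 ± 0.12. Of the BMP ligands and antagonists Fstl1, a secreted antagonist, was the only member tested and stood at 136 ± 14.4 CPM in aEC and 605 ± 95.3 CPM in pre-HE (log2 fold change 2.14 ± 0.10 SE, adjusted p = 1.59e-21).

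Most VEGF and angiopoietin genes tested rose and most sprouting genes tested fell. In the VEGF and Tie list 6 were higher and 2 lower of 10 tested, and the sum was 1396 ± 149 CPM in aEC and 2646 ± 148 CPM in pre-HE. Vegfc, a ligand of the receptors Kdr and Flt4, stood at 13.01, 11.9, 6.98, 26.8 and 8.80 CPM in aEC and 223, 213, 236, 195 and 189 CPM in pre-HE (log2 fold change 3.72 ± 0.19 SE, adjusted p = 1.65e-20). The pre-HE libraries lay in a narrow band above all aEC libraries. Tek, the angiopoietin receptor, rose by 2.14 ± 0.14 and the co-receptor Nrp1 by 1.85 ± 0.09. The main VEGF receptor Kdr was not called, at 0.02 ± 0.09.

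Of 18 tip-cell genes tested, 11 were lower and 7 higher, with a median of -0.98, although the sum was higher in pre-HE in 2 of 5 libraries. Aplnr, the apelin receptor of veins and sprouts, stood at 253, 264, 195, 140.1 and 209 CPM in aEC and 0, 0, 0, 2.43 and 56.6 CPM in pre-HE (log2 fold change -5.14 ± 0.33 SE, adjusted p = 7.4e-17). In 4 libraries pre-HE was near 0 and WT 5 was the exception, and the change was -7.04 without WT 5. Ramp3, a partner of the adrenomedullin receptor, changed by -5.29 ± 0.32 and Trp53i11 by -2.65 ± 0.24. Dll4, Unc5b and Igfbp3, which this list also holds, rose by 1.48 ± 0.14, 1.84 ± 0.17 and 1.60 ± 0.15.

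Wnt receptors were higher and several Wnt target genes lower. Of 39 receptors, ligands and inhibitors measured 13 were tested, and the list summed to 325 ± 29.6 CPM in aEC and 558 ± 44.2 CPM in pre-HE. Of those tested, 9 were higher and 1 lower, such as the receptors Fzd6 at 1.26 ± 0.21 and Fzd4 at 1.03 ± 0.20 and the co-receptor Lrp6 at 0.73 ± 0.17. In the list of pathway and target genes 5 rose and 5 fell of 10 tested. Lef1, the nuclear factor that is also a Wnt target, stood at 129, 107, 156, 129 and 119 CPM in aEC and 5.23, 0, 0, 7.30 and 12.6 CPM in pre-HE (log2 fold change -4.42 ± 0.27 SE, adjusted p = 8.31e-18), with no overlap. The feedback inhibitor Nkd1 and the nuclear factor Tcf7 fell with it, with changes of -4.76 ± 0.25 and -1.92 ± 0.28, whereas Tcf7l1 and Tcf7l2 rose by 1.41 ± 0.26 and 0.82 ± 0.20. The median of that list, -0.82, turned to 0.31 without WT 3, when 14 genes were tested, and it also turned sign with cells thinned, with equal cell numbers and in WT 1 and 4 alone.

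Feedback and output genes of Ras-MAPK signalling were mostly lower, 11 of 15 tested with 1 higher, and their sum was 1400.5 ± 114 CPM in aEC and 973 ± 185 CPM in pre-HE. Ets1, a transcription factor that MAPK switches on in endothelium, stood at 413, 362, 359, 398 and 310.0 CPM in aEC and 125, 104, 102, 161 and 195 CPM in pre-HE (log2 fold change -1.45 ± 0.13 SE, adjusted p = 8.38e-13), and every pre-HE library lay below every aEC library. Spred2, an inhibitor of the pathway, changed by -1.22 ± 0.28. Dusp1, a phosphatase that stress induces, was the exception at 1.13 ± 0.15. Upstream, FGF and other tyrosine kinase receptors and ligands had 5 higher and 2 lower of 7 tested, and JAK-STAT and cytokine receptor genes 3 higher and 5 lower of 14, with 3 lower without WT 4. Each list had 28 genes measured. The FGF list summed to 275 ± 21.9 CPM in aEC and 374 ± 57.8 CPM in pre-HE, and its median of 1.84 was 0.47 with cells thinned. The JAK-STAT list summed to 402 ± 20.9 CPM in aEC and 466 ± 26.1 CPM in pre-HE. The receptors Fgfr1 and, in the JAK-STAT list, Lifr and the ligand Pdgfa rose by 1.97 ± 0.17, 2.14 ± 0.17 and 3.65 ± 0.27, while the ligand Hbegf and the stem cell factor receptor Kit had changes of -1.78 ± 0.19 and -1.35 ± 0.25.

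Most tested genes of the insulin-like growth factor (IGF) axis and of the ephrins rose. Of 13 IGF genes tested 9 were higher and 2 lower, and their sum was 2202 ± 289 CPM in aEC and 4028 ± 800.2 CPM in pre-HE. Igf2, a fetal growth factor, stood at 444, 412, 578, 703 and 349.6 CPM in aEC and 1139.5, 1476, 1954, 1720.3 and 792 CPM in pre-HE (log2 fold change 1.49 ± 0.09 SE, adjusted p = 2.62e-18), without overlap. The binding proteins parted, Igfbp2 at 1.67 ± 0.12 and Igfbp3 at 1.60 ± 0.15 against Igfbp7 at 259.9, 234, 245, 242 and 96.3 CPM in aEC and 55.8, 27.3, 141, 54.4 and 18.9 CPM in pre-HE (log2 fold change -2.05 ± 0.17 SE, adjusted p = 1.48e-13). For Igfbp7 WT 5 was the lowest aEC and WT 3 the highest pre-HE library, and the ranges overlapped. Of 19 ephrin and Eph genes measured 6 were tested, with 4 higher and 1 lower. The list summed to 262 ± 27.6 CPM in aEC and 848 ± 42.6 CPM in pre-HE. Efnb2, the ligand that marks arteries, stood at 56.1 ± 9.67 CPM in aEC and 310.4 ± 47.6 CPM in pre-HE (log2 fold change 2.39 ± 0.13 SE, adjusted p = 2.18e-19), and Efna1 and Efna4 rose by 1.68 ± 0.11 and 1.37 ± 0.25.

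Flow-responsive genes shifted together, with 13 higher and 1 lower of 15 tested, a median of 1.10 and a sum of 991 ± 174 CPM in aEC and 3796 ± 664 CPM in pre-HE. Gja5, which forms gap junctions in arteries, stood at 0.317, 3.66, 0, 4.52 and 2.93 CPM in aEC and 441, 695, 422, 475 and 421 CPM in pre-HE (log2 fold change 7.40 ± 0.20 SE, adjusted p = 3.76e-30), and the change was 8.0 without WT 4. Its partner connexin Gja4 stood at 123, 271, 103, 232 and 96.3 CPM in aEC and 1484, 1617, 1456, 1543 and 1132 CPM in pre-HE (log2 fold change 3.18 ± 0.12 SE, adjusted p = 3.82e-25). Pre-HE of WT 2 had the highest Gja5, and neither connexin overlapped between types. Of the vasoactive genes, 9 were higher and 6 lower of 18 tested. Edn1, the vasoconstrictor endothelin, stood at 18.4, 31.5, 26.9, 83.98 and 35.7 CPM in aEC and 728, 554, 632, 1048 and 365 CPM in pre-HE (log2 fold change 4.13 ± 0.15 SE, adjusted p = 6e-25), and Calcrl, the receptor of adrenomedullin, at 56.8, 56.2, 61.8, 77.1 and 33.7 CPM in aEC and 772, 736, 798, 597 and 446 CPM in pre-HE (log2 fold change 3.51 ± 0.12 SE, adjusted p = 1.9e-26). Ramp3, which lets that receptor respond to adrenomedullin, was at 99.6 ± 13.9 CPM in aEC and 3.19 ± 2.46 CPM in pre-HE, so receptor and partner went opposite ways. The prostacyclin synthase Ptgis rose by 1.61 ± 0.14.

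Interferon-responsive and antigen presentation genes were higher in pre-HE, 12 of 16 tested with 1 lower, a median of 0.75 and a sum of 1061 ± 67.5 CPM in aEC and 2518 ± 236 CPM in pre-HE. Bst2, a membrane protein that holds back viruses, stood at 48.2, 75.1, 50.9, 65.3 and 50.4 CPM in aEC and 267, 323, 275, 376 and 220.1 CPM in pre-HE (log2 fold change 2.36 ± 0.12 SE, adjusted p = 3.86e-20). Ifitm3 and Ifitm2, membrane proteins of the same defence, rose by 2.70 ± 0.12 and 1.36 ± 0.09, and the receptor chain Ifngr2 changed by -1.28 ± 0.19. The NF-kB and Toll-like receptor genes had 4 higher and 1 lower of 17 tested, and 2 higher without WT 1 and 1 without WT 4. These 4 and 1 were 23.5% and 5.88%, against 21.1% of all genes in each direction. Nfkbia, the NF-kB inhibitor, changed by -0.67 ± 0.13.

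Bst2 is shown with its promoter because it was among the largest changes of that list and its window held the interferon motif. The 250 bases before its RefSeq start are GRCm38.p6 chr8:71537473-71537722, minus strand. Capitals mark 2 overlapping matches to TTTCNNTTTC, the repeat that interferon regulatory factors bind, on the opposite strand and 130 and 124 bases before the start.
Bst2: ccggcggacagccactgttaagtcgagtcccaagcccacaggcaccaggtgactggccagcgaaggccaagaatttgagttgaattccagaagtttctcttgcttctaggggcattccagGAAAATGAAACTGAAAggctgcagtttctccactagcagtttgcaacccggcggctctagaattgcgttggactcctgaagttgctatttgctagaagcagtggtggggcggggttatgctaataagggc
Of 33 interferon genes with an entry 11 held it, against 3.46% of 27025 genes. Stat2, Isg15 and Ifitm2 were among them, and Ifitm3 was not.

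**Figure D1:**
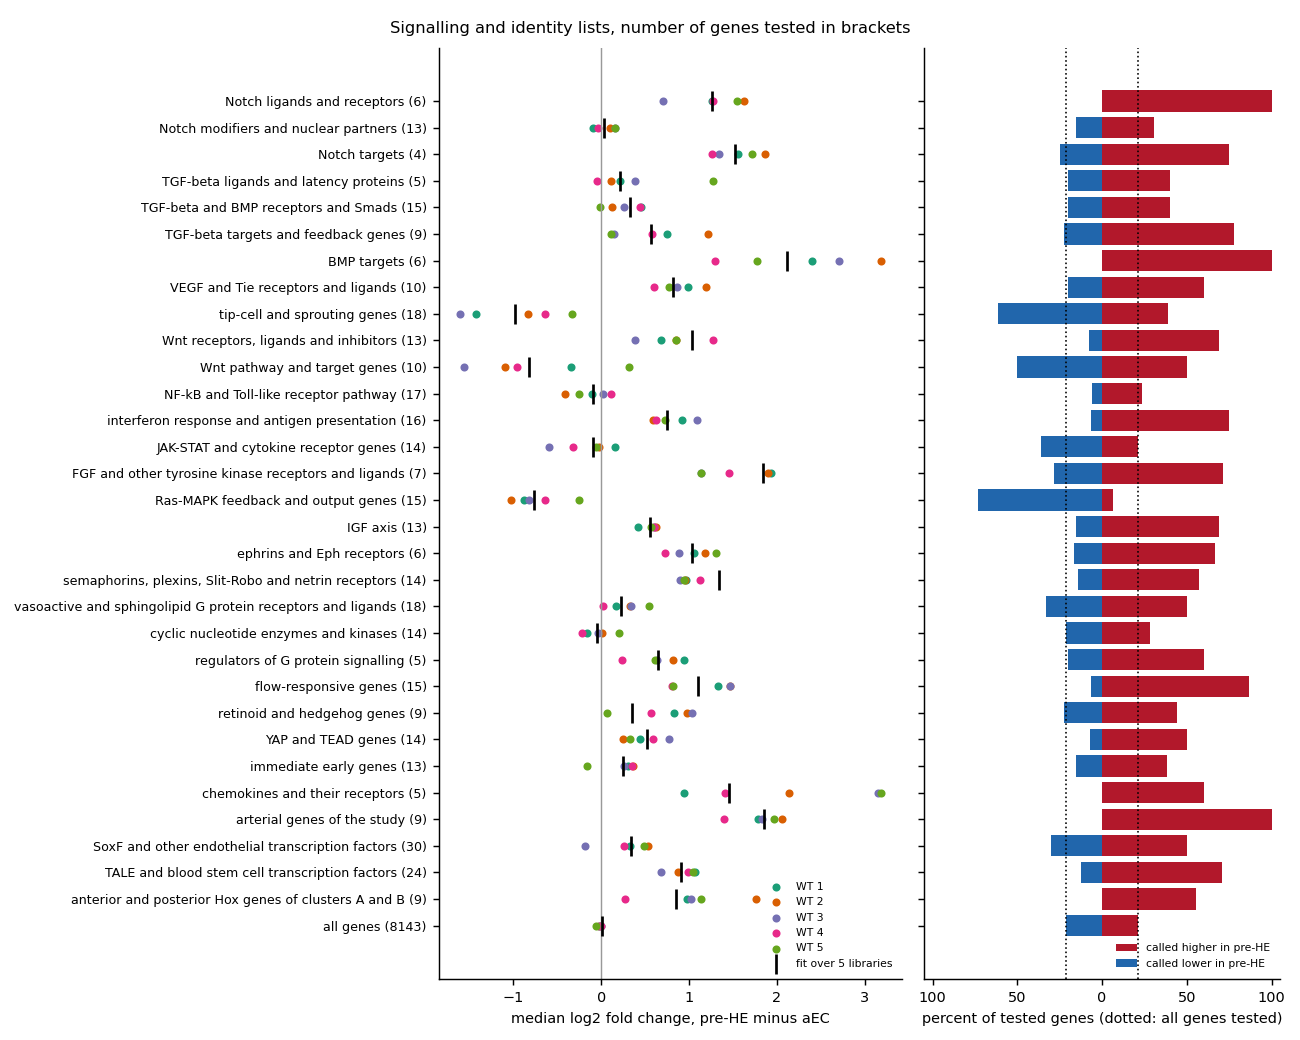
Median log2 fold change of each signalling or identity list (left; points are single WT libraries, bars the fit over 5) and the percent of its tested genes called higher (red) or lower (blue) in pre-HE (right). Notch ligands, BMP targets and arterial genes reach 100% higher, while the Ras-MAPK and tip-cell lists lie left of 0. The dotted lines mark the 21.1% of all genes in each direction.

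Among cell cycle genes most calls were lower in pre-HE, and Ccnd1 and Cdkn1a fell while their relatives Ccnd2 and Cdkn1c rose. Of 45 S phase genes tested 19 were lower and 0 higher, and of 54 G2 and M phase genes 19 were lower and 5 higher. The summed levels were 3253 ± 580.3 CPM in aEC and 2568 ± 442 CPM in pre-HE for S phase and 6763 ± 853 CPM in aEC and 5346 ± 829.7 CPM in pre-HE for G2 and M phase, higher in pre-HE in 1 of 5 and 0 of 5 libraries. Without WT 4 the G2 and M genes had 12 lower, and the 5 higher became 0 without WT 1, 2 without WT 2, 3 without WT 3, 2 without WT 5 and 1 without the library block. The replication helicase Mcm3 changed by -0.64 ± 0.12, and Birc5 (survivin), which acts at the spindle, stood at 310.2 ± 57.9 CPM in aEC and 153 ± 33.2 CPM in pre-HE (log2 fold change -1.0 ± 0.12 SE, adjusted p = 8.22e-09).

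Ccnd1, the G1 cyclin that growth factors induce, stood at 262, 249, 149, 169 and 268 CPM in aEC and 50.5, 54.5, 38.3, 55.99 and 94.3 CPM in pre-HE (log2 fold change -1.89 ± 0.15 SE, adjusted p = 3.81e-14). Its paralog Ccnd2 stood at 31.7, 43.98, 20.9, 53.1 and 32.3 CPM in aEC and 155, 154, 159.7, 181 and 126 CPM in pre-HE (log2 fold change 2.03 ± 0.15 SE, adjusted p = 5.83e-15). Each pair of ranges was apart, in opposite directions. The whole list of G1 cyclins, kinases and E2F factors had 4 higher and 6 lower of 18 tested. These were 22.2% and 33.3%, against 21.1% of all genes in each direction. Cdkn1a (p21), the p53-induced CDK inhibitor, stood at 198, 188, 254, 264 and 143 CPM in aEC and 24.4, 4.54, 0, 21.1 and 12.6 CPM in pre-HE (log2 fold change -3.68 ± 0.21 SE, adjusted p = 8.38e-19). Cdkn1c (p57), an imprinted CDK inhibitor linked to quiescence, stood at 239, 326, 261, 565 and 247 CPM in aEC and 1296, 1136, 1609.6, 1616 and 1383 CPM in pre-HE (log2 fold change 2.13 ± 0.11 SE, adjusted p = 1.43e-20). The aEC of WT 4 had the highest aEC level of Cdkn1c and still lay below all pre-HE. Cdkn1b, a further CDK inhibitor, fell like Cdkn1a but by less, at -0.70, or -0.29 without WT 4. Its call was lost without WT 4, with DESeq2, with cells thinned and without the library block. In the whole list of inhibitors and p53 targets 12 were higher and 6 lower of 24 tested, and 3 were lower without WT 1 and without WT 4. The antiproliferative genes Btg2 and Gadd45b rose by 2.22 ± 0.14 and 2.24 ± 0.23. Chromatin genes of dividing cells had 14 lower and 1 higher of 24 tested, with the histone variant H2afz at -0.79 ± 0.07.

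Single cells showed how the lower cycle genes were spread. With each cell thinned to 5000 UMIs, which left out 2 aEC, the median aEC held 21 UMIs of G2 and M phase genes and the median pre-HE 10. The 90th percentiles were 69 and 65, so the highest cells of both types were close and the middle of the pre-HE distribution lay lower. For S phase genes the medians were 12 and 7 UMIs.

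**Figure D2:**
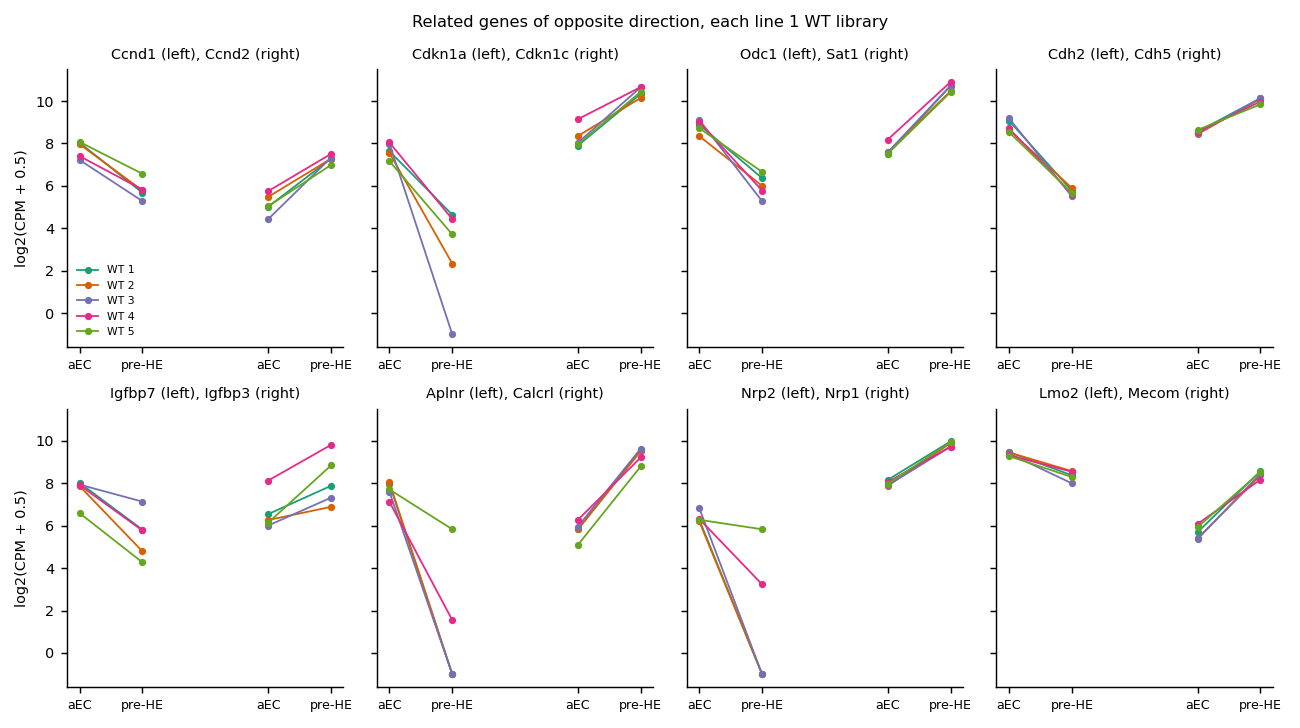
Levels of 8 pairs of related genes, chosen for their opposite changes, on the log2(CPM + 0.5) scale, with 1 line for each WT library from aEC to pre-HE. In each panel the gene on the left falls and that on the right rises, as with Ccnd1 and Ccnd2, Cdkn1a and Cdkn1c, or Odc1 and Sat1. A library with 0 counts sits at -1.

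Matrix genes were higher in most families. Elastic fibre genes had 8 higher and 0 lower of 9 tested, a median of 1.45 and a sum of 384 ± 38.6 CPM in aEC and 1188 ± 252 CPM in pre-HE, and the median was 3.92 of 12 tested without WT 3 and 2.14 of 11 without WT 5. Fbn1, the fibrillin that scaffolds elastin, stood at 1.27, 2.75, 1.995, 1.25 and 2.93 CPM in aEC and 159, 159, 281, 165 and 88.03 CPM in pre-HE (log2 fold change 6.40 ± 0.23 SE, adjusted p = 8.19e-26). Fbn2 and Mfap2, which sit on the same microfibrils, rose by 2.02 ± 0.15 and 1.45 ± 0.12. Fn1, fibronectin, stood at 208, 191, 208, 280.1 and 199 CPM in aEC and 1366, 1217, 1271, 1053 and 459 CPM in pre-HE (log2 fold change 2.27 ± 0.12 SE, adjusted p = 2.25e-19). Neither Fbn1 nor Fn1 overlapped between types.

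In the basement membrane, Col18a1, Col4a2 and Col4a1 rose by 1.51 ± 0.09, 0.75 ± 0.09 and 0.65 ± 0.09, and the list summed to 1356 ± 203 CPM in aEC and 2568 ± 464 CPM in pre-HE. Laminin and linker genes had 4 higher and 2 lower of 8 tested, with the heparan sulfate proteoglycan Hspg2 at 0.82 ± 0.12 and Nid2, which links laminin to collagen IV, at -1.63 ± 0.19. Of the fibrillar collagens Col5a2 was the only member tested and stood at 34.02 ± 7.16 CPM in aEC and 182 ± 81.4 CPM in pre-HE (log2 fold change 2.39 ± 0.15 SE, adjusted p = 8.65e-17). Proteases and their inhibitors had 13 higher and 2 lower of 23 tested, and 4 lower without WT 3. Htra1, a secreted serine protease, and Mmp2, a gelatinase, rose by 4.98 ± 0.17 and 2.75 ± 0.17, while Timp3, an inhibitor of such proteases, changed by -1.41 ± 0.15. Hapln1, which links hyaluronan to proteoglycans, stood at 372 ± 59.4 CPM in aEC and 107 ± 39.9 CPM in pre-HE (log2 fold change -1.87 ± 0.13 SE, adjusted p = 2.7e-16), and Tmem2, a hyaluronidase, rose by 2.02 ± 0.12.

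Integrin chains went both ways. The fibronectin receptor chain Itga5 and the common chain Itgb1 rose by 1.21 ± 0.17 and 0.70 ± 0.09. Itga4, a chain that blood cells also use, stood at 46.4 ± 11.2 CPM in aEC and 11.5 ± 6.25 CPM in pre-HE (log2 fold change -2.29 ± 0.29 SE, adjusted p = 1.75e-08). Of 9 integrins tested 3 were higher and 4 lower, and 2 were lower without WT 1 and without WT 4.

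Contractile, caveolar and junction lists held more higher than lower genes in pre-HE. Of 27 actomyosin genes tested 11 were higher and 4 lower, and 2 were lower without WT 1 and 1 without the library block, but the sum was 9906 ± 526 CPM in aEC and 10414 ± 904 CPM in pre-HE, and abundant members fell, such as Tpm4, a tropomyosin, at -0.99 ± 0.09. Myl9, a myosin light chain of smooth muscle and endothelium, stood at 9.84, 12.5, 13.96, 13.6 and 10.8 CPM in aEC and 64.5, 40.9, 63.9, 109 and 101 CPM in pre-HE (log2 fold change 2.72 ± 0.20 SE, adjusted p = 6.13e-15). Tagln, an actin-binding protein, stood at 3.49, 4.28, 4.99, 12.3 and 3.91 CPM in aEC and 138, 45.4, 243, 399 and 252 CPM in pre-HE (log2 fold change 5.07 ± 0.19 SE, adjusted p = 1.69e-24). Pdlim1, a scaffold of actin fibres, rose by 5.35 ± 0.20, and its change was 5.97 without WT 4. None of the 3 overlapped between types, and the sums of smooth muscle markers given above were higher in pre-HE beside them.

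The promoter of Myl9 is shown as a contractile gene whose entry held a CArG box, the motif bound by serum response factor. It covers GRCm38.p6 chr2:156775214-156775463, plus strand, the 250 bases before the RefSeq start, and capitals mark the box, 161 bases before the start, which reads as a match on both strands.
Myl9: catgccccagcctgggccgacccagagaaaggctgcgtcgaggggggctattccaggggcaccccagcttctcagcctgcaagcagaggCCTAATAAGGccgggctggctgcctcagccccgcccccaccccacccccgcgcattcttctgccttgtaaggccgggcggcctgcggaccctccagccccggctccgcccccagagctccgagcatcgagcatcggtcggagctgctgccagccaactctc
Of 28 actomyosin genes with an entry 5 held such a box, against 1.62% of 27025 genes. Beside Myl9 these were Cnn2, Vcl, Srf and Myl6, and Myl6 was called lower in pre-HE, so the box was not confined to genes that rose.

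Caveolae, the flask-shaped pits of endothelial membranes, had 6 higher and 1 lower of 7 tested, and the list summed to 572 ± 82.9 CPM in aEC and 1502 ± 210.1 CPM in pre-HE. Cav2 rose by 1.31 ± 0.17 and Cav1 by 1.28 ± 0.16, although Cav1 overlapped through the aEC of WT 4. Junction genes had 14 higher and 3 lower of 25 tested, and 5 lower without WT 5. Icam2, an adhesion molecule of endothelial junctions, rose by 1.86 ± 0.10, whereas Cdh2, N-cadherin, which joins endothelium to mural cells, stood at 538, 398, 579, 416 and 369 CPM in aEC and 54.02, 59.1, 44.7, 48.7 and 50.3 CPM in pre-HE (log2 fold change -3.15 ± 0.14 SE, adjusted p = 1.08e-22). All pre-HE libraries lay far below all aEC libraries for Cdh2. Of the haemostasis genes 7 were higher and 3 lower of 12 tested, and the list of 19 summed to 1364 ± 114 CPM in aEC and 2165 ± 196 CPM in pre-HE. Vwf, von Willebrand factor, stood at 23.6 ± 17.1 CPM in aEC and 657 ± 237 CPM in pre-HE (log2 fold change 4.66 ± 0.16 SE, adjusted p = 7.75e-26), Entpd1 (CD39), which breaks down ATP, rose by 3.58 ± 0.20, and Tfpi, an inhibitor of coagulation, changed by -1.10 ± 0.14.

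Most glycolysis genes tested were lower in pre-HE. Of 16 genes tested 12 were lower and 1 higher, the median was -1.01, between -1.28 and -0.74 in the single libraries, and the sum was 6420.2 ± 1044 CPM in aEC and 2983 ± 1146 CPM in pre-HE. Pkm, pyruvate kinase, stood at 1219, 1152, 1022, 1413 and 1141 CPM in aEC and 242, 218, 332, 608 and 396 CPM in pre-HE (log2 fold change -1.77 ± 0.11 SE, adjusted p = 7.97e-17). Ldha, which makes lactate, stood at 1025, 941, 1077, 1306 and 1018 CPM in aEC and 321, 277, 281, 723 and 421 CPM in pre-HE (log2 fold change -1.42 ± 0.11 SE, adjusted p = 8.57e-15). Neither overlapped. Ldhb, the other lactate dehydrogenase chain, was the only higher gene, at 1.17 ± 0.26. Hypoxia-responsive genes had 10 lower and 4 higher of 19 tested, and 6 lower without WT 1 and 5 without the library block, with Mif, a cytokine, at -1.79 ± 0.10 and Epas1 (HIF-2 alpha), an arterial gene as well, at 1.86 ± 0.15.

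The enzymes of the mitochondrion followed, by less. Of 72 nuclear oxidative phosphorylation genes tested 54 were lower and 1 higher, with a median of -0.34 and a sum of 34436 ± 3292 CPM in aEC and 27258 ± 1819 CPM in pre-HE, and 32 were lower after thinning to 5000 UMIs per cell. Ndufb2 and Ndufa8, subunits of complex I, changed by -0.97 ± 0.12 and -0.89 ± 0.11. The 13 genes encoded in mitochondrial DNA leaned the other way, 7 higher and 0 lower, with a median of 0.20, but 1 was higher without the library block. Of 29 citric acid cycle genes tested 10 were lower and 0 higher, such as Fh1, fumarase, at -0.91 ± 0.16.

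Nucleotide synthesis had 9 lower and 0 higher of 25 tested. Nme1, which phosphorylates nucleoside diphosphates, stood at 715, 862, 875, 772 and 1040.5 CPM in aEC and 246, 249.8, 256, 322 and 389.9 CPM in pre-HE (log2 fold change -1.51 ± 0.10 SE, adjusted p = 4.11e-17), and Hprt, of purine salvage, changed by -1.09 ± 0.15. Polyamine genes had 4 higher and 6 lower of 13 tested, and their sum was 3866 ± 197 CPM in aEC and 3956 ± 282 CPM in pre-HE. Odc1, the rate-limiting enzyme of polyamine synthesis, stood at 472, 325, 554, 515 and 422 CPM in aEC and 81.9, 63.6, 38.3, 54.4 and 101 CPM in pre-HE (log2 fold change -2.83 ± 0.15 SE, adjusted p = 6.18e-20). Sat1, which acetylates polyamines for export and breakdown, stood at 182, 190.3, 192, 289.6 and 182 CPM in aEC and 1690.1, 1417, 1686, 1910.2 and 1371 CPM in pre-HE (log2 fold change 2.97 ± 0.09 SE, adjusted p = 1.39e-28). Amd1, another enzyme of polyamine synthesis, rose by 0.85 ± 0.17, Azin1, which frees Odc1 from its inhibitor, rose by 2.01 ± 0.14, and Smox, an oxidase of spermine, changed by -2.16 ± 0.29.

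A pair of windows of this theme are shown because Ldha and Nme1 both fell with no overlap and both have a window that holds CACGTG, the E-box bound by Myc and other factors. The window of Ldha, the first of 2 in RefSeq, is GRCm38.p6 chr7:46845554-46845803, plus strand, with the box at 145 and 48 bases before the start, and that of Nme1, also the first of 2, is chr11:93968273-93968522, minus strand, with the box at 18 bases. The second window of Ldha, chr7:46846832-46847081, held no such box, and the second of Nme1, chr11:93968026-93968275, held it at 29 bases. Capitals mark the box, which reads the same on both strands.
Ldha: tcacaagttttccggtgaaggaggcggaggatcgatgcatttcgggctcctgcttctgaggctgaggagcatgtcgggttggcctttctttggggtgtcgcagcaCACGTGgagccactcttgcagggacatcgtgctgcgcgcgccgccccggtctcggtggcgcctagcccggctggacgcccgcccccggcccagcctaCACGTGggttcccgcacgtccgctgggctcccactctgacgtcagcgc
Nme1: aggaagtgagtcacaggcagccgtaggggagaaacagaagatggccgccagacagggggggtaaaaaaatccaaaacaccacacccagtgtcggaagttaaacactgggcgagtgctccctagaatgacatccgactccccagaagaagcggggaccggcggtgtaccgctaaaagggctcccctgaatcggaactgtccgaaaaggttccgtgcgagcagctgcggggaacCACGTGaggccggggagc
Of 22 glycolysis genes with an entry 4 held the box and of 23 nucleotide genes 5, against 6.86% of 27025 genes, while ribosome biogenesis genes, 3 of 44, and ribosomal protein genes, 5 of 60, lay near that share. The glycolysis genes with the box were Ldha, Pfkm, Pfkfb3 and Slc16a1, and Pkm, which fell by more than Ldha, was not among them.

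Iron and heme genes had 1 higher and 7 lower of 17 tested, and their sum was 4462 ± 238 CPM in aEC and 3113 ± 314 CPM in pre-HE, lower in pre-HE in 5 of 5 libraries. Tfrc, the transferrin receptor that brings in iron, stood at 148, 130.4, 136, 109.5 and 58.7 CPM in aEC and 8.71, 0, 38.3, 4.87 and 6.29 CPM in pre-HE (log2 fold change -3.91 ± 0.28 SE, adjusted p = 1.19e-15). Amino acid transport and ATF4 response genes had 6 higher and 7 lower of 17 tested. Slc3a2, the heavy chain of amino acid transporters, and Asns, asparagine synthetase, changed by -2.03 ± 0.16 and -2.68 ± 0.29, and the taurine transporter Slc6a6 rose by 1.70 ± 0.12. Lipid uptake, transport and storage genes had 6 higher and 3 lower of 16 tested, with a sum of 1009 ± 59.8 CPM in aEC and 1662 ± 191 CPM in pre-HE. Apoe, a lipid carrier, stood at 88.9 ± 32.03 CPM in aEC and 518 ± 138 CPM in pre-HE (log2 fold change 2.57 ± 0.12 SE, adjusted p = 1.04e-21), and Npc1, which moves cholesterol out of lysosomes, rose by 1.70 ± 0.21, while the sterol exporter Abcg1 changed by -2.35 ± 0.25. Cyp26b1, which breaks down retinoic acid, rose by 1.81 ± 0.15.

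Most called genes of ribosomes, translation, cytosolic folding and the proteasome were lower in pre-HE. Endoplasmic reticulum folding genes had 7 higher and 7 lower of 27 tested, 25.9% in each direction and close to the 21.1% of all genes. Without WT 1 the endoplasmic reticulum list had 4 higher and 3 lower, without WT 4 4 higher, and without the library block 4 lower. Of 80 ribosomal protein genes tested 70 were lower and 0 higher, with a median of -0.35 and a sum of 232659 ± 25826 CPM in aEC and 182530.3 ± 18352 CPM in pre-HE, and 44 were lower without the library block. Translation factors had 16 lower and 2 higher of 34, ribosome biogenesis 18 lower and 0 higher of 46, mitochondrial ribosome and import genes 28 and 0 of 41, and cytosolic chaperones 13 and 0 of 21. Npm1, nucleophosmin, which assembles ribosomes in the nucleolus, stood at 2527, 2819, 3001, 3050.0 and 3367 CPM in aEC and 1349, 1440.0, 1731, 2019.7 and 1842 CPM in pre-HE (log2 fold change -0.82 ± 0.07 SE, adjusted p = 1.77e-13), with no overlap. The proteasome had 28 lower and 2 higher of 36, the latter being Psme1 and Psme2, the activator subunits that interferon induces, at 0.68 ± 0.13 and 0.65 ± 0.18, the call of Psme2 being lost without the library block and in WT 1 and 4 alone. After thinning, 16 proteasome and 17 mitochondrial ribosome genes were lower.

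Lysosome genes went the other way, 16 higher and 3 lower of 31 tested, with a sum of 3258 ± 89.7 CPM in aEC and 4826 ± 560.1 CPM in pre-HE. Ctsh, a lysosomal protease, stood at 14.9, 21.1, 15.96, 21.2 and 19.1 CPM in aEC and 453, 527, 434, 491 and 208 CPM in pre-HE (log2 fold change 4.53 ± 0.14 SE, adjusted p = 2.9e-27), and the pre-HE of WT 5 was the lowest of the pre-HE libraries and far above all aEC. Ctsl, another, and Cd63, a membrane protein of late endosomes, rose by 1.39 ± 0.09 and 2.59 ± 0.14. Gabarapl1, which coats autophagosomes, changed by -1.62 ± 0.18.

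**Figure D3:**
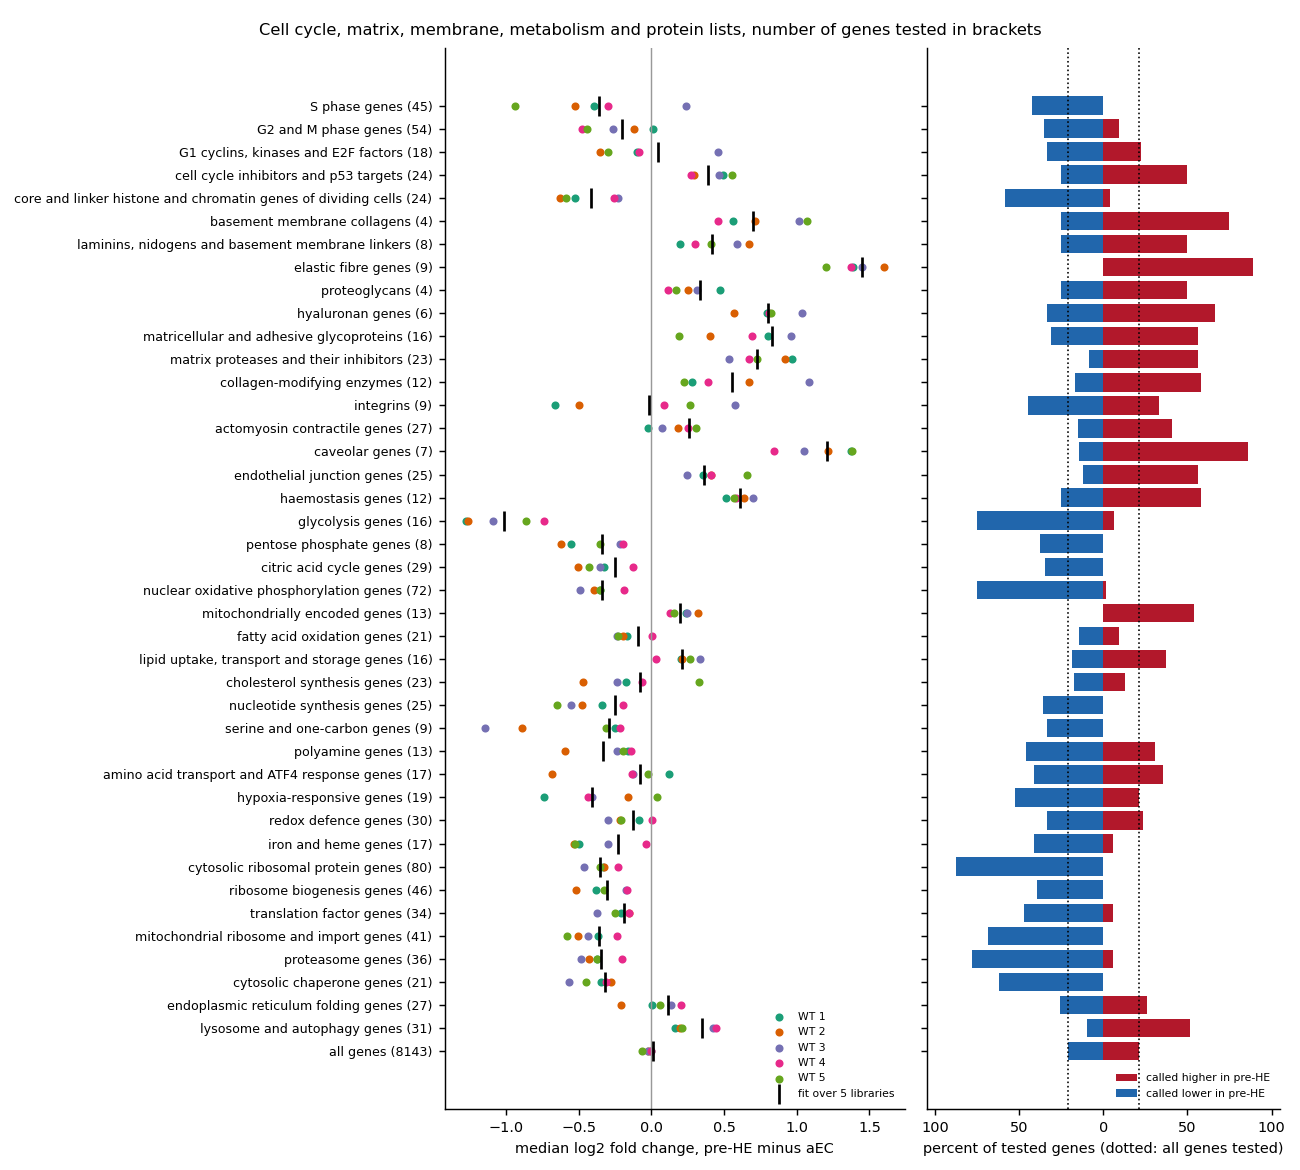
The same 2 measures for the lists of cell cycle, matrix, metabolism and protein synthesis, with points for single WT libraries and bars for the fit. Elastic fibre and caveolar genes lie right of 0, and glycolysis lies furthest left, at -1.01.

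**Figure D4:**
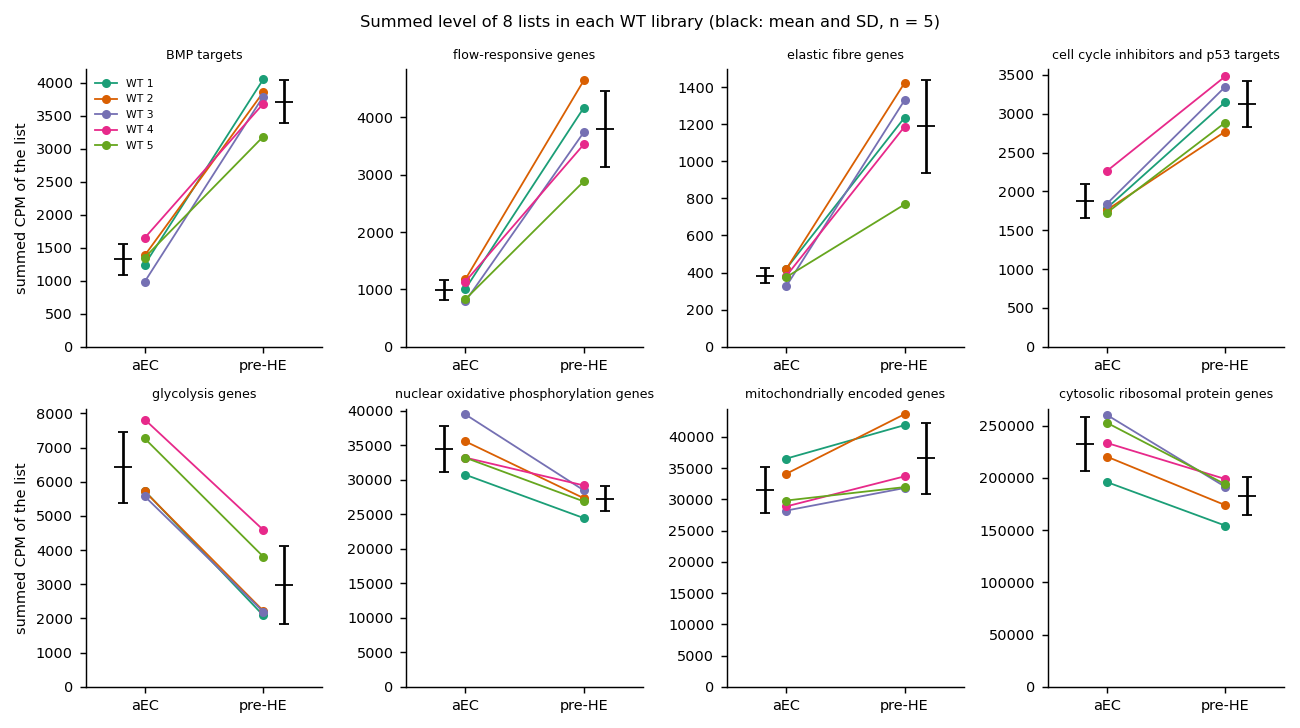
Summed CPM over all measured members of 8 lists in each WT library, with the mean and SD of 5 libraries in black and axes from 0. BMP targets, flow-responsive, elastic fibre and cell cycle inhibitor sums rise in every library, glycolysis and ribosomal protein sums fall in every library, and mitochondrially encoded sums rise by less.

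Transcription factors of endothelium and of blood stem cells differed as well. Of 30 endothelial factors tested 15 were higher and 9 lower, and of 24 TALE and blood stem cell factors 17 were higher and 3 lower. Mecom, a factor that blood stem cells need, stood at 51.4, 41.8, 40.9, 67.5 and 60.6 CPM in aEC and 382, 332, 351, 289 and 371 CPM in pre-HE (log2 fold change 2.65 ± 0.13 SE, adjusted p = 1.07e-20). Meis2, of the same family as Meis1, stood at 7.30, 10.7, 7.98, 10.9 and 8.80 CPM in aEC and 202, 263, 229.9, 173 and 201 CPM in pre-HE (log2 fold change 4.42 ± 0.16 SE, adjusted p = 3.82e-25). Lmo2, a bridge in the complexes that start blood formation, stood at 711, 703, 679, 640.2 and 622 CPM in aEC and 333, 382, 256, 374 and 314 CPM in pre-HE (log2 fold change -0.99 ± 0.10 SE, adjusted p = 1.76e-11). None of the 3 overlapped, and Lmo2 alone went down. Gata6, Gata3 and Bcl11a rose by 4.68 ± 0.23, 3.02 ± 0.24 and 2.60 ± 0.22, and the homeobox factor Hlx changed by -1.32 ± 0.26, or by -2.29 without WT 4. Of 9 Hox genes tested 5 were higher and 0 lower, with Hoxb4 at 1.05 ± 0.20.

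The spread among single cells differed between programs. With cells thinned to 5000 UMIs, the median aEC held 6 UMIs of BMP targets and the median pre-HE 18, with quartiles of 3 to 10 and 13 to 23.5 that did not meet. For flow-responsive genes the medians were 3 and 17, with quartiles of 2 to 7 and 12 to 24.5. For glycolysis they were 30 and 12, with quartiles of 23 to 39 and 9 to 20, whereas for ribosomal protein genes, at 1080 and 922, the quartiles of 980.2 to 1201 and 803.5 to 1040.0 overlapped. Cells of 1 library are not replicates, and these values carry no test.

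Antibody tags measured surface proteins and were not used in the clustering, so they are independent of the labels. They were counted in WT 1, 2, 3 and 5, and in WT 4 the total was 0. CD43, a sialomucin of blood cells and their precursors, had mean counts per cell of 36.3, 37.9, 14.3 and 4.82 in aEC and 51.8, 55.0, 37.4 and 8.31 in pre-HE, and was higher in 4 of 4 libraries (mean log2 ratio 0.81 ± 0.41 SD, exact two-sided sign-flip p = 0.125, adjusted over 5 tags 0.3125). CD117 (Kit) had 47.9, 47.5, 19.4 and 7.63 in aEC and 35.0, 41.4, 13.4 and 4.31 in pre-HE, and was lower in 4 of 4 (-0.50 ± 0.26 SD, exact p = 0.125, adjusted 0.3125). With 4 libraries 0.125 is the smallest p this test can give, so neither could pass 0.05. The CD45.2 tag had similar mean counts, 46.6, 65.5, 27.9 and 6.34 in aEC and 45.9, 62.2, 29.4 and 4.19 in pre-HE. Its RNA, Ptprc, was nearly absent from both types, as given above. Tag counts were not corrected for background, and the part of background in the CD43 and CD117 counts was not tested. The study described pre-HE as negative for both proteins. The direction of the CD117 tag was that of its RNA, Kit, which changed by -1.35 ± 0.25.

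The other tags gave smaller ratios. CD41, an integrin of early blood cells, differed by -0.12 ± 0.28 (exact p = 0.625), CD45.2 by -0.16 ± 0.30 (exact p = 0.375) and CD27 by 0.04 ± 0.16 (exact p = 0.75). For CD41 and CD27 the sign of the mean depended on the library or the summary taken. CD44 was counted in WT 5 alone and has no replicate.

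**Figure D5:**
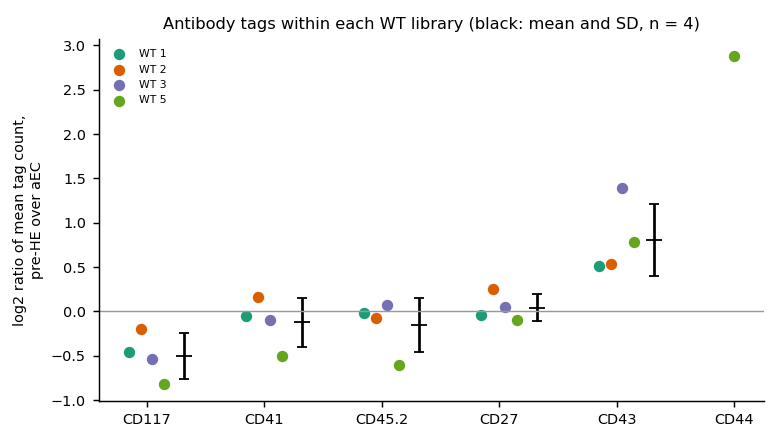
Log2 ratio of the mean tag count per cell in pre-HE over aEC, with 1 point for each library with tag counts and black bars for the mean and SD of 4 libraries. CD43 lies above 0 and CD117 below 0 in all 4 libraries, CD41, CD45.2 and CD27 lie on both sides, and CD44 has 1 point, from WT 5.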

How the data were processed

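The authors deposited raw UMI counts of genes and antibody tags per cell, with no normalization, and a table of the sample and cluster of each cell. The submitters' processing notes name Cell Ranger 3.0.2 and mm10, and the annotation release is not given in the sources used here. The study kept cells with at least 2000 genes and at most 10% mitochondrial counts. Sample columns that matched no label numbered 0.

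Counts were summed per library and cluster and fitted in edgeR 4.0.16 (R 4.3.3) with filterByExpr, TMM, the library as a block and the two-sided quasi-likelihood F test. The block was used because both sums of a library come from the same pool of embryos, and deviations from the cluster means correlated over genes at between 0.0653 and 0.228 within libraries. The SE is the size of the log2 fold change divided by the square root of F. Depth per cell and per sum is given in the report, and the small pre-HE sums set the precision. Libraries are separate pools, so p-values measure the spread between pools.

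The members and the 87 lists were chosen with earlier results of these data known. From each list the 3 genes that rose most and the 3 that fell most, or fewer, were named, among called genes with a mean log2(CPM + 0.5) of at least 4 that moved the same way in 5 of 5 libraries, and over all genes 5 in each direction. Any member of a list of up to 9 genes and any marker of another cell type could also be named. Kdr, Runx1 and Gfi1 were named outside this rule, and some genes within it are not reported here. Simulated counts for 8143 genes with 200 changed by 1.5 on the log2 scale gave 96.0% found and 4.48% false among calls. The simulation had far fewer changed genes than were called in the data, and no difference between libraries. Its changes were also larger than many of the list medians. It therefore does not give the error for small changes, or for scaling when many genes change.

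Alternatives used DESeq2 1.42.0, other scalings, no filter, stricter thresholds, no block, no doublets, cells thinned to 5000 UMIs, equal cell numbers, and each library left out. WT 1 and 4 alone, and removal of cells above the 90th percentile of UMIs, were chosen after seeing the data. Scrublet in scanpy 1.11.5 marked 28 of 8423 WT cells (0.332%) and cannot be taken to have worked. Tags were compared by exact sign flips of the log2 ratio of mean counts. Promoters are RefSeq windows of 250 bases before each start, on GRCm38.p6. Scripts ran in Python 3.11.15 with pandas 2.3.3, matplotlib 3.10.9, scipy 1.17.1 and numpy 2.4.6.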

Additional observations from a re-analysis of the deposited data

Results flagged for a closer look

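A library was marked where its gap to the nearest of the other libraries of its cluster was unusually large for the range (Dixon's 95% limit). The groups checked were the sums of 31 lists and the levels of 59 genes in each type, and 5 tags. Of these 185 groups 27 (14.6%) were marked. The limit marks about 1 in 20 only for normal values in independent groups. Levels were taken as CPM here, and some genes also belong to the list sums, so the share is not compared with chance. No explanation was tested for any of the marks.

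The aEC of WT 4 was the highest aEC library for 10 values: Tmem100 at 22.1 CPM, Igfbp3 at 279.7, Edn1 at 84.0, Cdkn1c at 565, Fn1 at 280.1, Tagln at 12.3, Cav1 at 89.4, Vwf at 53.1, Sat1 at 289.6, and the sum of cell cycle inhibitors and p53 targets at 2262 CPM. All of these were higher in pre-HE than in aEC.

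WT 5 was the lowest pre-HE library for the sums of TGF-beta targets, at 528 CPM, and of matrix proteases and inhibitors, at 1691 CPM, and for Mmp2, at 75.5, and Ctsh, at 207.5. It was the highest pre-HE library for Aplnr, at 56.6, and for chromatin genes of dividing cells, at 16230.0 CPM summed. In aEC it was lowest for junction genes, at 4666 CPM summed, Igfbp7, at 96.3, and Htra1, at 1.47, and highest for Birc5, at 412, and proteasome genes, at 11380.0 CPM summed.

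The other marks were the sum of Notch ligands and receptors in pre-HE of WT 3, lowest at 338.5 CPM, Tfrc in pre-HE of WT 3, highest at 38.3, and Gja5 in pre-HE of WT 2, highest at 695. In aEC they were fibrillar collagens, at 59.6 CPM summed, and Jag1, at 69.2, both highest in WT 1, and Tpm4, highest in WT 3 at 1211.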

How the results depend on the processing

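The count of 3432 called genes lay between 2592 and 3543 with any 1 library left out, with 1316 to 1765 higher and 1276 to 1778 lower in pre-HE. Without the replicate block, which pairs the 2 sums of each library, 3083 genes were called, 1606 higher and 1477 lower. RLE size factors gave 3451, library totals alone 3368, DESeq2 2567, no filter on low counts 4229, an adjusted p under 0.05 2879, and WT 1 and 4 alone 3413. Cells thinned to 5000 UMIs gave 1717, 859 higher and 858 lower, of 4661 genes tested, and equal cell numbers gave 2100, 1068 and 1032, of 4654, with fewer genes tested in both by construction. Bonferroni adjustment left 1088, 570 and 518, and a change of at least 2-fold left 978, 581 and 397.

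None of the 261 named genes that were refitted turned its direction in any of these fits that held it. Between 0 and 20 lost the call in a single alternative. With cells thinned and with equal cell numbers, only 232 of these genes were fitted. The genes had been chosen as called and as moving the same way in every library. A turned direction was therefore unlikely from the start, and its absence is no independent check. List medians turned sign most often without the filter on low counts, in 15 of 87 lists. The CD41 tag ratio of -0.12 became 0.00995 with medians per cell, and ranged from -0.22 to 0.004544 with a library left out. The CD27 ratio of 0.04 became -0.01649 as a share of the shared tags, and ranged from -0.02751 to 0.0912 with a library left out. With 11 to 87 pre-HE cells in a library, low receptors, ligands and markers of other cells were often not testable at this depth.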

Other observations

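Among the 5 largest rises over all genes, with Sdpr, Gja5, Fbn1 and Tmem100, was Tm4sf1, a tetraspanin-like membrane protein of endothelium, at 6.72 ± 2.62 CPM in aEC and 713 ± 168 CPM in pre-HE (log2 fold change 6.80 ± 0.16 SE, adjusted p = 3.49e-32). Among the largest falls stood Clec1b, a C-type lectin receptor known from platelets, at 618 ± 52.6 CPM in aEC and 21.7 ± 18.3 CPM in pre-HE (log2 fold change -4.88 ± 0.18 SE, adjusted p = 3.82e-25), and Bok, a BCL2 family member, at 481 ± 61.1 CPM in aEC and 21.0 ± 14.7 CPM in pre-HE (log2 fold change -4.61 ± 0.18 SE, adjusted p = 6.1e-24). For each of these genes the ranges of the 5 libraries did not overlap between types. Semaphorin and plexin genes held 8 higher and 2 lower of 14 tested, with the receptor Plxna2 at 2.53 ± 0.23 and the ligand Sema3g at 2.04 ± 0.17. All 36 measured members summed to 639 ± 75.4 CPM in aEC and 960 ± 103 CPM in pre-HE. Of YAP and TEAD genes 7 were higher and 1 lower of 14 tested, with Cyr61 at 2.20 ± 0.18 and Amotl2 at 1.22 ± 0.20. Redox genes had 7 higher and 10 lower of 30 tested, or 23.3% and 33.3% against 21.1% of all genes in each direction. Among them Prdx4 changed by 0.86 ± 0.10 and Txn1 by -0.88 ± 0.08.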
